A study of Drosophila melanogaster with 25 samples.

Results

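The su(Hw) transcript (FBgn0003567) was followed through every library of a RIP-seq study in which its own protein, Su(Hw), was 1 of the proteins pulled down. It is 1 of 16037 gene identifiers counted, and it was chosen by its counts, already known to be high in the Su(Hw) precipitates, so its levels and folds are given as a description with no test. In RIP-seq an antiserum pulls a protein and the RNA that comes with it out of an extract, and that RNA is sequenced. Polyadenylated RNA was taken here from nuclear extracts precleared with preimmune serum. Su(Hw) was pulled down with antiserum Gp60. The RNA-binding protein Shep was pulled down with Rb5, Rb6 or Gp01. The cells were Kc167 (Kc), an embryonic Drosophila line with blood-cell properties, and BG3, a line from the larval central nervous system. The labels give no treatment or added transgene for either line.

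Kc cells had 6 inputs, 3 Su(Hw) precipitates, and 3, 2 and 2 Shep precipitates with Rb5, Rb6 and Gp01. BG3 cells had 2 inputs, 2 Su(Hw) precipitates and 2 Shep Rb5 precipitates. These 22 libraries in 8 groups held between 6190633 and 59066733 counts assigned to genes, with the lowest total in Kc Su(Hw) 1. An input library is made from nuclear extract RNA that was not precipitated. No mock precipitation with an unrelated serum was used here, so a precipitate can be set only against input or against a precipitate with another antiserum. The labels number biological replicates and do not say whether they came from separate cultures, so the spread between libraries may be partly technical. The blood-cell and nervous-system markers fixed for a check of the lines could not be matched to the counted identifiers, so cell identity was not checked.

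Su(Hw), Suppressor of Hairy wing, is a DNA-binding protein with an array of C2H2 zinc fingers. It binds the insulator of the gypsy retrotransposon and many sites across the genome. With the cofactors Cp190 and Mod(mdg4) it forms the gypsy insulator complex, which can block an enhancer from acting on a promoter when placed between them. The gene itself makes an mRNA that leaves the nucleus for translation, so a nuclear extract holds the part of its RNA that is nascent, retained or on its way out. In a RefSeq gene table of a later genome assembly than that of the counts, su(Hw) lies on chromosome arm 3R next to IFT54, whose span overlaps its own, and Polr2I, an RNA polymerase II subunit gene. Reads in a shared stretch may therefore be lost to su(Hw). The identifiers of both neighbours, and of the insulator partner genes chosen for comparison, could not be paired with names here, so their counts were not analysed.

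su(Hw) was a transcript of modest abundance in the nuclear RNA of both lines. Levels are given as CPM, which are counts brought to a common library size, scaled with TMM factors, which correct for a few very abundant RNAs taking up a library. In Kc inputs 1 to 6 the level was 25.0, 9.09, 15.5, 25.6, 20.2 and 15.8 CPM. Input 2, with 73 reads of su(Hw) in the smallest input library, was the lowest. The other Kc inputs held between 265 and 849 reads. In BG3 inputs 1 and 2 the level was 20.7 and 26.9 CPM, from 754 and 795 reads. The BG3 values lie at or above the upper part of the Kc range, and the groups overlap.

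The input means were 18.5 ± 6.34 CPM (SD, n = 6) in Kc and 23.8 ± 4.40 CPM (n = 2) in BG3. From the edgeR fit over all libraries the BG3 input stood 0.14 ± 0.48 (SE) above the Kc input on the log2 scale, which is less than its error. Of the 9961 genes that passed the filter on low counts, 89.4% differed more between the 2 inputs.

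With antiserum Gp60, su(Hw) RNA was far above input in every Su(Hw) library. In Kc Su(Hw) precipitates 1, 2 and 3 it stood at 1043, 2887 and 1401 CPM, from 4646, 87086 and 53123 reads. In BG3 Su(Hw) precipitates 1 and 2 it stood at 583 and 1644 CPM, from 6118 and 58611 reads. The lowest of these 5 values, BG3 Su(Hw) 1, lies 24.5-fold above the mean BG3 input, and the highest, Kc Su(Hw) 2, lies 156-fold above the mean Kc input. No Su(Hw) precipitate overlapped any input or any Shep precipitate.

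**Figure D1:**
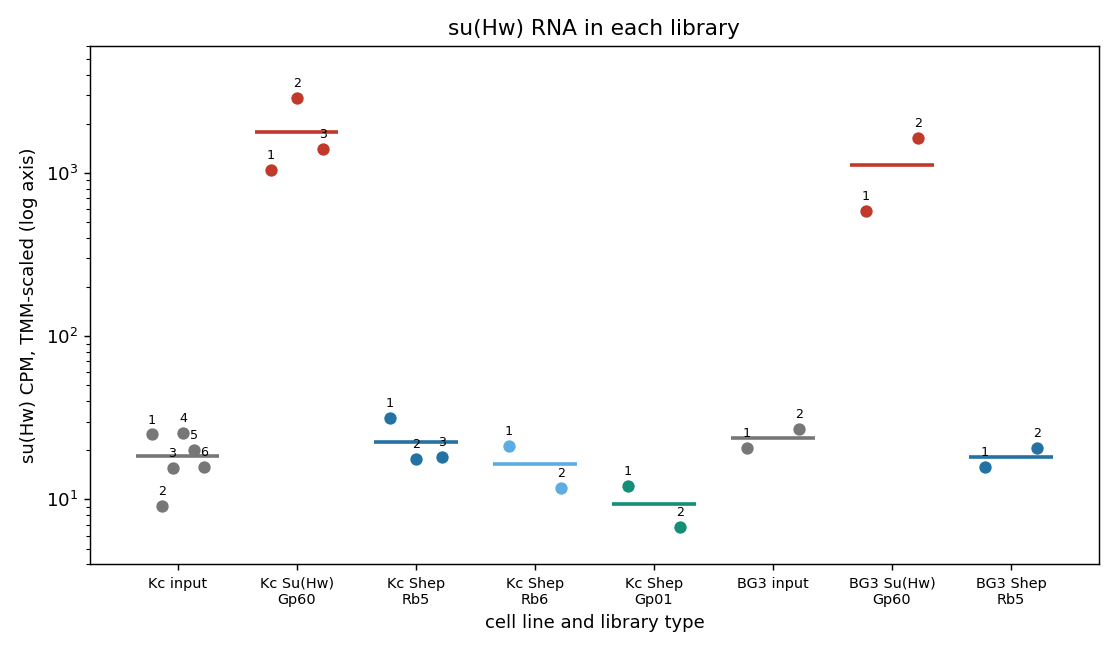
su(Hw) level in each library, as TMM-scaled CPM on a log axis, by cell line and library type. Points are single libraries numbered by replicate and bars are group means. The 5 Su(Hw) precipitates lie between 583 and 2887 CPM, and the inputs and Shep precipitates between 6.76 and 31.7 CPM.

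Without TMM scaling, su(Hw) took 0.0750%, 0.189% and 0.125% of all gene counts in Kc Su(Hw) 1, 2 and 3. The exact (Clopper-Pearson) 95% intervals were 729 to 772, 1877 to 1903 and 1242 to 1263 CPM. The shares were 0.0239% and 0.120% in BG3 Su(Hw) 1 and 2, with intervals of 233 to 245 and 1192 to 1212 CPM. In the Kc inputs they ran from 0.000877% to 0.00246%. These intervals cover counting error only, and they are narrow beside the distance between libraries of 1 group.

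The group means were 1777 ± 978 CPM (n = 3) for Kc Su(Hw) and 1113 ± 750 CPM (n = 2) for BG3 Su(Hw). The highest library of each group held 2.77 times (Kc) and 2.82 times (BG3) the level of the lowest. The SD of log2 CPM was 0.76 in Kc and 1.06 in BG3, beside medians of 0.41 and 0.37 over the tested genes. In these precipitates su(Hw) varied more between libraries than 73.6% (Kc) and 88.6% (BG3) of tested genes. In the Kc inputs it varied more than 64.5% of them. With Rb5, Rb6 and Gp01 in Kc, where su(Hw) was not raised in this way, the shares were 67.7%, 80.8% and 77.6%. For the BG3 inputs and BG3 Rb5 they were 44.9% and 52.4%.

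The joint edgeR fit put su(Hw) at a log2 fold of 6.45 ± 0.42 (SE) over input in Kc and 5.55 ± 0.64 in BG3, or 87.6-fold and 46.7-fold. For scale, edgeR called 13.0% of tested genes higher in the Kc comparison and 14.5% in the BG3 comparison (adjusted p under 0.05). The BG3 estimate rests on 2 precipitates, and it was 4.60 without BG3 Su(Hw) 2 and 6.11 without BG3 Su(Hw) 1. In BG3 Su(Hw) 1 the TMM factor was 0.410, the farthest from 1 of all libraries, while in the other Su(Hw) precipitates it lay between 0.655 and 0.894. With no TMM scaling the BG3 fold was 5.19.

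Libraries were sequenced in 4 classes of machine and quality encoding, and the rise of su(Hw) was present in each class that holds a Su(Hw) precipitate. Within the GA II class, Kc Su(Hw) 1 lay 6.11 above the mean of its 2 inputs in log2 CPM. Within the class of the samples listed for both machines, Kc Su(Hw) 2 lay 7.54 above its single input. Within the HiSeq class with PHRED64 qualities, Kc Su(Hw) 3 lay 5.94 above 2 inputs, and the 2 BG3 precipitates lay on average 5.37 above the BG3 inputs. Each of these 3 Kc classes holds 1 Su(Hw) precipitate, so class and single library cannot be told apart there. In each of them su(Hw) had the largest such difference of all 9961 tested genes. In BG3 it was number 31.

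The Su(Hw) precipitates were also ranked one at a time, by log2 CPM less the mean of the line's inputs. The prior count of 2 in log2 CPM shrinks the differences of scarce RNAs, so these ranks and those within classes favour well-counted RNAs. In each of the same 3 Kc libraries su(Hw) was the most raised of all tested RNAs. It was number 118 in BG3 Su(Hw) 1 and number 12 in BG3 Su(Hw) 2. Ranked by its lowest value over all 5 Su(Hw) libraries, it came first of 9961 genes, at 4.62 on the log2 scale. The next gene, FBgn0000212, had a lowest value of 3.35, and 4 genes in all had one of at least 2.

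The rank in the joint fit also depends on how scarce RNAs are treated. In Kc, 1 gene had a larger fitted fold than su(Hw), FBgn0016047, which had no read in any Kc input and at most 1.80 CPM in a Kc Su(Hw) precipitate. In BG3, 108 genes had a larger fitted fold, of which 97 were under 1 CPM in the inputs and 56 had no read there. Of genes with at least 10 CPM in their line's inputs, none of 5166 in Kc exceeded su(Hw), and 1 of 5277 in BG3 did. That gene, FBgn0086690, rose from 179 CPM in the BG3 inputs to 38787 and 14388 CPM in BG3 Su(Hw) 1 and 2, while its Kc log2 fold was 0.32. Both identifiers were singled out after their values were seen.

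**Figure D2:**
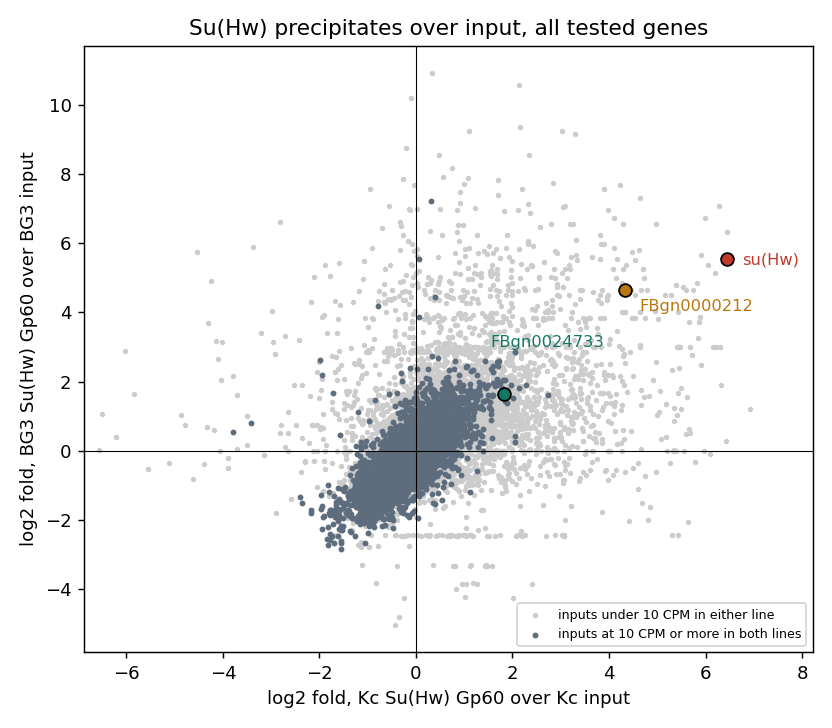
Fitted log2 folds of Su(Hw) precipitates over input for the tested genes, Kc on the horizontal and BG3 on the vertical axis. Dark points are genes with at least 10 CPM in the inputs of both lines. su(Hw), at 6.45 and 5.55, lies at the upper right, beyond FBgn0000212 at 4.32 and 4.66.

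su(Hw) RNA was not raised in this way with any of the Shep antisera. With Rb5 in Kc cells the level was 31.7, 17.6 and 18.2 CPM, so that 1 library lay above the highest Kc input and 2 lay within the input range. The log2 fold over input was 0.31 ± 0.43, and it was -0.11 without Rb5 1. With Rb6 the level was 21.3 and 11.8 CPM, both within the Kc input range, at a log2 fold of -0.12 ± 0.47. With Rb5 in BG3 cells it was 15.8 and 20.7 CPM, just below the BG3 inputs, at -0.38 ± 0.53.

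Gp01 gave the lowest su(Hw) levels. The values were 12.1 and 6.76 CPM, 1 within and 1 below the range of the Kc inputs, and the log2 fold was -0.93 ± 0.49. Of tested genes, 87.7% had a higher fold with Gp01. This value depends on the scaling, since the TMM factors of the Gp01 libraries reached 1.52, and without TMM the fold was -0.32. Without TMM the Rb5 fold in Kc was 0.93, and the folds of Rb6 in Kc and Rb5 in BG3 turned to 0.24 and 0.14. The Su(Hw) folds kept their sign under every setting tried.

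Set directly against Shep precipitates of the same line, the Su(Hw) precipitates held 6.14 ± 0.55 more su(Hw) RNA than Rb5 in Kc on the log2 scale, and 5.93 ± 0.65 more than Rb5 in BG3. By size of the positive fold, su(Hw) was number 23 of the tested genes against Rb5 in Kc and number 25 against Rb5 in BG3. Against Gp01 the difference was 7.38 ± 0.71, the largest positive fold of all tested genes in that comparison. Without TMM these 3 differences were 5.18, 5.05 and 6.43. In the order of group means, Kc Su(Hw) at 1777 CPM was followed by BG3 Su(Hw) at 1113 CPM, and their libraries overlapped. A gap of 5.55 on the log2 scale then separated BG3 Su(Hw) from the BG3 input. The remaining groups ran from 23.8 CPM in the BG3 inputs through Kc Rb5 (22.5), Kc input (18.5), BG3 Rb5 (18.3) and Kc Rb6 (16.6) to Kc Gp01 (9.43). Each of these overlapped the next one down.

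**Figure D3:**
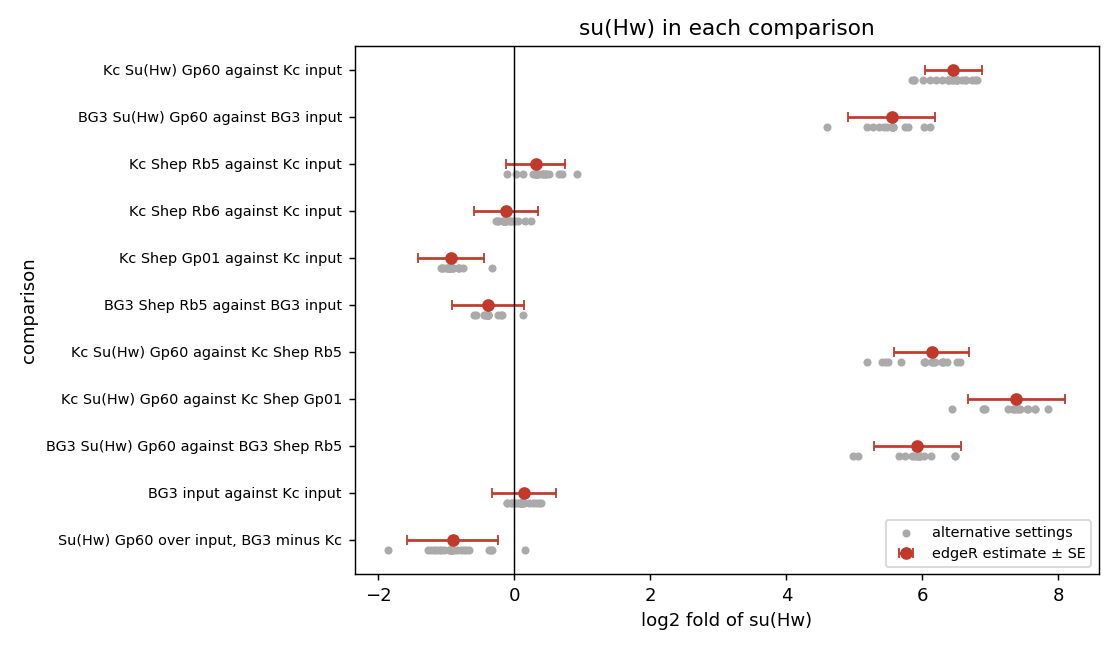
Log2 fold of su(Hw) in each of the 11 comparisons. Red points with bars are edgeR estimates ± SE, and grey points are the same comparison under alternative settings or without single libraries. The 5 comparisons of Su(Hw) precipitates with inputs or Shep precipitates lie between 5.55 and 7.38, and the 4 Shep folds over input between -0.93 and 0.31.

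The recovery of su(Hw) was lower in BG3 than in Kc cells by 0.91 ± 0.66 on the log2 scale, as the difference of the folds over input. The BG3 libraries and the Kc libraries overlap at this size, and single libraries move it. The difference was -1.85 without BG3 Su(Hw) 2 and -0.33 without Kc Su(Hw) 2. It was 0.15 without the Su(Hw) libraries Kc 1, Kc 2 and BG3 1, a value that rests on 1 Su(Hw) library in each line (Kc 3 and BG3 2).

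Few transcripts followed su(Hw) across the 14 precipitates. Likeness was measured as Pearson's r of log2 CPM, less the mean of the same line's inputs, and its median over 9960 genes was 0.022. It was at least 0.9 for 9 genes and at least 0.8 for 92. The highest values were 0.94 for FBgn0024733 and 0.93 for FBgn0000212, neither of which has a name in the tables used here. Among the 9 Shep libraries alone r was 0.38 for FBgn0024733 and 0.27 for FBgn0000212. Among the 5 Su(Hw) libraries alone it was 0.17 and 0.72. The precipitates of a line share their inputs.

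FBgn0000212 came nearest to su(Hw) in size. It stood at 25.3 CPM in the Kc and 14.3 CPM in the BG3 inputs, and at 525 and 360 CPM on average in the Su(Hw) precipitates. Its log2 folds were 4.32 ± 0.35 in Kc and 4.66 ± 0.54 in BG3. It was also above input with Rb5 in BG3, where su(Hw) was not and where its 2 libraries held 63.5 and 31.6 CPM beside 15.7 and 12.9 CPM in the inputs. FBgn0024733 moved less from a much higher level. It stood at 4682 CPM in the Kc and 6402 CPM in the BG3 inputs and at 18672 and 20013 CPM with Su(Hw), log2 folds of 1.83 and 1.64.

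**Figure D4:**
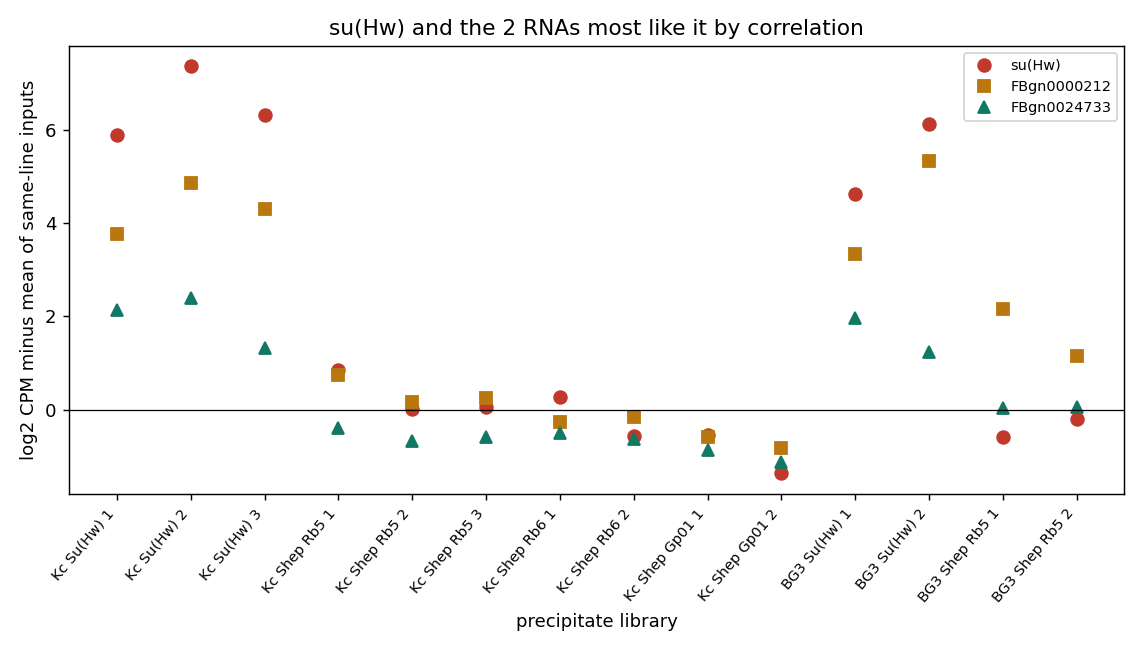
Log2 CPM minus the mean of the same line's inputs in each of the 14 precipitates, for su(Hw) and the 2 RNAs with the highest correlation with it. All 3 are highest in the 5 Su(Hw) libraries, where su(Hw) runs from 4.62 to 7.36, and FBgn0000212 is also above input with Rb5 in BG3.

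Of genes with a symbol, the nearest were CG17666 (FBgn0036311) at r = 0.79, LanA (FBgn0002526), the laminin alpha chain of basement membranes, at 0.71, and Pde1c (FBgn0264815), a cyclic nucleotide phosphodiesterase gene, at 0.65. CG5793 (FBgn0038858) and lncRNA:CR43887 (FBgn0264479) followed at 0.65 and 0.62. They rank only 109th to 590th in likeness, since few of the identifiers have a symbol. CG17666 and Pde1c averaged under 0.1 CPM in the inputs of each line and at most 0.758 CPM with Su(Hw), so their values rest on few reads. CG17666 passed the filter on low counts only through Su(Hw) precipitates, which favours a high likeness. Their highest single inputs were 0.189 CPM for CG17666 (Kc input 1) and 0.136 CPM for Pde1c (BG3 input 2). LanA is abundant, and its log2 folds with Su(Hw) were 0.54 in Kc and 0.98 in BG3.

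The margin of a transcript was taken as the lower of its Su(Hw) folds in Kc and BG3 less the highest of its 4 Shep folds. su(Hw) had the largest margin of the tested genes, 5.23 on the log2 scale. Besides su(Hw), 17 genes had a margin above 2, led by FBgn0263470 at 4.45 and FBgn0086661 at 2.90. The margin of FBgn0263470 came in part from Shep precipitates below input, with folds of -4.88 to -2.40. Its Kc fold of 2.05 with Su(Hw) turned to -1.81 with HiSeq libraries alone. FBgn0086661 had a BG3 fold of 6.10 ± 1.56, from 25.1 CPM in BG3 Su(Hw) 1 and 1.09 CPM in BG3 Su(Hw) 2. That fold was 2.56 without BG3 Su(Hw) 1. The level of FBgn0086661 in Kc Su(Hw) 3, at 2.87 CPM, lay within the range of the Kc inputs. Of genes with a symbol, CG17666 had the largest margin, at 2.38. It reached 0.449 and 0.597 CPM in Kc Su(Hw) 1 and 2. Its highest levels elsewhere were 0.189 CPM in an input and 0.166 CPM in a Shep library. It passed the filter on low counts only through Su(Hw) precipitates, so a high likeness and margin were favoured in advance. Its BG3 fold of 3.13 was 1.67 without BG3 Su(Hw) 1. LanA, mGluR (FBgn0019985), a metabotropic glutamate receptor gene, lncRNA:CR43887 and Pde1c had margins between 0.45 and 0.73.

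As a share of gene counts, reads matching no counted feature were scarcer in the Kc Su(Hw) precipitates than in the Kc inputs. Annotation release and strand setting were not given, so such reads may lie within genes as well as between them. Reads matching no counted feature came to 28.6% to 32.3% of the gene counts in Kc Su(Hw) libraries and to 59.7% to 123% in Kc inputs. On this share the groups did not overlap (exact permutation p = 0.0238, two-sided, n = 3 and 6, smallest possible 0.0119, adjusted p = 0.143 over 6 such tests). In BG3 they came to 17.6% to 20.1% with Su(Hw) and to 17.2% and 60.2% in the 2 inputs, so the groups overlapped (exact permutation p = 1, n = 2 and 2, smallest possible 0.333). Low values were found with Rb5, Rb6 and Gp01 in Kc as well (at most 47.1%, 37.6% and 19.3%). Reads matching more than 1 gene came to 1.79% to 2.53% with Su(Hw) and 1.79% to 2.18% in the inputs of Kc cells (exact permutation p = 0.429, n = 3 and 6). In BG3 they came to 1.81% to 2.47% with Su(Hw) and 1.68% to 1.92% in the inputs. They were higher with the Shep antisera, at 2.73% to 2.95% with Rb5 in Kc and 2.39% to 3.10% with Rb5 in BG3. With Rb6 they came to 2.93% to 3.33%, and with Gp01 to 2.90% to 3.14%. The part of these shares in the su(Hw) values was not tested.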

How the data were processed

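Each sample has 1 deposited table, which holds raw counts of reads per FBgn identifier. Per the submitters' processing notes, cutadapt 1.2.1, TopHat2, Bowtie2, HTSeq and DESeq were used with genome build dm3. Annotation release and strand setting were not given in the sources used here, and reads of overlapping or antisense genes may be misassigned. The 5 lines that name no gene held 50.2% to 91.2% of counts in a library and were left out of library sizes. Of 25 listed samples, 3 Kc samples appear in 2 identical files each (input 3, Shep Rb5 3 and Su(Hw) 2) and were counted once.

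The gene, the lists and the comparisons were chosen with earlier results of these data known. Counts were fitted with edgeR 4.0.16 (limma 3.58.1, R 4.3.3), robust quasi-likelihood and TMM scaling, with group and sequencing class as terms and all 22 libraries in the model. The SE of an edgeR fold was taken as the size of its log2 fold divided by the square root of the quasi-likelihood F. It is thus an approximation. The edgeR filter (minimum count 10, minimum total 15) left 9961 genes. The script was tested on simulated data. Log2 CPM used a prior count of 2 and served the differences of single libraries, the SDs of log2 CPM and the likeness. A RefSeq table (assembly GCF_000001215.4), used for symbols, names 172 of the identifiers (1.07%). The name su(Hw) for FBgn0003567 came with the choice of the gene. Of 52 insulator, RNA-linked and cell type genes listed by symbol, and of 7 neighbouring genes, 0 could be paired with a counted identifier, so their tests were not run. Other genes were named by rule: by likeness and by margin, the 2 highest of all and the 5 highest with a symbol. Alternatives were other scalings, DESeq2 1.42.0, limma voom, no filter, no class, the replicate block, subsets of libraries, and leaving out each library.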

Additional observations from a re-analysis of the deposited data

Results flagged for a closer look

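The single Rb5 libraries of the 2 lines lay on opposite sides of the mean input in log2 CPM for su(Hw), in part by very little. In Kc cells all 3 Rb5 libraries lay above the mean of the inputs in log2 CPM, by 0.86, 0.0080 and 0.055. In BG3 cells both lay below it, at -0.57 and -0.19. The mean difference, BG3 minus Kc, was -0.69, and it was not tested. On the linear scale Kc Rb5 2 and 3 lay below the mean input, at 0.950 and 0.982 times its CPM. The fitted folds, 0.31 ± 0.43 in Kc and -0.38 ± 0.53 in BG3, were both smaller than their SE. Without Kc Rb5 1 the fitted Kc fold was -0.11, and with no TMM scaling both folds were positive, at 0.93 and 0.14.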

How the results depend on the processing

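Of 132 values of su(Hw) folds under another setting, 126 lay within 1 SD of the libraries' spread from the reported one. That SD of log2 CPM was the largest among the compared groups, 0.76 for Kc Su(Hw) and 1.06 for BG3 Su(Hw) over input. It is thus a wide measure, and shifts of that size would not be counted as moved. With no TMM scaling the log2 folds moved to 0.93 for Kc Rb5, -0.32 for Gp01 and 0.14 for BG3 Rb5 over input, and to 5.18 and 6.43 for Kc Su(Hw) over Rb5 and Gp01. The difference between lines moved to 0.15 when the Su(Hw) precipitates Kc 1, Kc 2 and BG3 1 were left out, an alternative added after seeing the data, as were TMM over genes with inputs of at least 10 CPM and limma voom. The cause was not tested. Leaving out 1 library at a time, the Su(Hw) fold over input ran from 5.87 to 6.81 in Kc and from 4.60 to 6.11 in BG3. The fold of FBgn0263470 reversed to -1.81 with HiSeq libraries only and -1.78 without the 3 Su(Hw) libraries in Kc, and to -0.10 without them in BG3, where leaving out single libraries gave -0.032 to 3.75.

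Among genes with inputs of at least 10 CPM, su(Hw) ranked 1 in Kc under every setting tried and between 2 and 9 in BG3. Among all tested genes it ranked between 1 and 111 in Kc and between 22 and 642 in BG3. The Kc samples share only replicate numbers. Deviations of same-numbered inputs and Su(Hw) precipitates correlated at -0.08, 0.04 and -0.35, and 0 of 3 correlated best with their own number. In BG3 both pairs correlated best with their own number, at 0.34, which is 1 value since deviations mirror each other in groups of 2. Alignments to several places have a line of their own, where 1 read may be counted more than once. They made up 73.8%, 72.7% and 74.5% of all counts in BG3 input 1, Rb5 1 and Su(Hw) 1. In input 2, Rb5 2 and Su(Hw) 2 they made up 85.7%, 86.6% and 84.2%. The part of this in the BG3 su(Hw) values was not tested. The replicate block used the replicate number across both lines, in place of sequencing class, so it is not a pairing within a line. With it the folds were 6.72 in Kc and 5.55 in BG3. The fit with only the compared groups was not run for Su(Hw) against Gp01, since it left no residual degrees of freedom. Tests of the insulator list and of neighbouring genes were not run for want of identifiers.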
